A study of Homo sapiens with 14 samples.

Results

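Transcripts of the enzymes that write, keep and erase DNA methylation were followed from human pluripotent stem cells to pancreatic β-like cells. The set was fixed by name and holds 9 of the 60624 gene identifiers in each library: DNMT1 and UHRF1 (maintenance), DNMT3A, DNMT3B and DNMT3L (new methylation), and TET1, TET2, TET3 and TDG (removal). All libraries came from 1 line, the MEL1 human embryonic stem cell line, which carries GFP in 1 INS allele. Batch 1 held 1 library each of hPSC (undifferentiated stem cells), DE (definitive endoderm), PP2 (pancreatic progenitors) and SC-β, the β-like cells differentiated without an expansion step. Batch 2 held 2 libraries each of ePPs, the expandable pancreatic progenitors, at passage 9 (ePP-P9) and passage 21 (ePP-P21), and of the β-like cells derived from them (ePP-β). Batch 3 held 2 libraries each of pancreatic progenitors treated for 7 days either with 1 μM I-BET151, which blocks the BET bromodomain proteins that read acetylated histones, or with DMSO, its solvent. The ePPs were themselves grown in a medium with I-BET151 on a layer of feeder cells, and the hPSCs were kept on feeder cells without it. Because each group lay in 1 batch, differences between groups of different batches and differences between the batches cannot be told apart.

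Cytosine methylation at CpG sites is copied at each cell division by DNMT1, which UHRF1 brings to half-methylated DNA behind the replication fork. DNMT3A and DNMT3B methylate new sites, and DNMT3L, which has no catalytic activity, stimulates them in the early embryo and the germ line. The TET enzymes oxidise methylcytosine, and TDG cuts out the oxidised bases so that base excision repair can restore an unmethylated cytosine. Pluripotent cells are known for abundant DNMT3B and TET1, and loss of DNMT1 in the embryonic pancreas is known to deplete its progenitors.

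All values are in TPM (a share of all transcripts in a library, corrected for transcript length), so levels can be compared between genes. TPM keeps no read numbers. Depth is therefore unknown, and precision can be judged only from how far the 2 libraries of a group lie apart. Nothing states that these came from separate cultures, so p-values measure only the spread between these libraries, which may be technical. In bulk RNA, fewer cells of a type and less RNA per cell cannot be told apart. Between 14982 and 17578 genes reached 1 TPM per library, and ribosomal protein genes took 9.81% to 27.9% of the listed TPM. Summed pluripotency markers were at 4224 TPM in hPSC and 1026 TPM in DE against at most 311 TPM elsewhere. The sum hides LIN28A, which was at 460 TPM in hPSC, 625 TPM in DE and 276 TPM in PP2. Outside hPSC and DE, POU5F1 and NANOG were at most 0.389 TPM and SOX2 at most 35.1 TPM. Summed β cell markers were 11771 and 18174 TPM in the ePP-β libraries and 20978 TPM in SC-β, and other islet hormones summed to 14587 and 13934 TPM in ePP-β and 77090 TPM in SC-β. GCG, the glucagon gene of α cells, exceeded INS, the insulin gene, in ePP-β replicate 1, where INS was at 10916 TPM, and in SC-β, where INS was at 20657 TPM, but not in ePP-β replicate 2, where INS was at 17374 TPM, so the β-like libraries held transcripts of other islet cells too. Their part in the differences below was not tested. Mesenchymal markers (5 genes) summed to 1448 TPM in PP2 and 2562 TPM in SC-β and to between 33.7 and 220 TPM in the other libraries, so mesenchymal RNA was present in unequal amounts in the comparisons with PP2 below. Its part in the differences was not tested.

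The maintenance genes share a sequence feature at transcript starts. The E2F-type motif TTTNNCGC (N is any base, searched on both strands), known from promoters of replication genes, was looked for in the 250 bases before and the first 25 bases of each RefSeq transcript start (GRCh38.p14). It was present at 3 of the 19 starts of the 8 matched genes, namely the single DNMT1 start and 2 of the 3 UHRF1 starts, and at 0 of the 15 starts of the other members. The single DNMT3B window (chr20:32779602-32779876) lay inside the gene, which begins at 32762385. The DNMT1 and UHRF1 windows also lay inside their annotated genes, which begin at 10231286 (minus strand) and 4903080 (plus strand). The motif was therefore not looked for at any of these beginnings, and neither its presence nor its absence there is shown. Of all 35116 starts 6.43% held it, and among 10 matched genes of a proliferation list 6 had it. The DNMT1 window (chr19:10194929-10195203, minus strand) and the window of the first UHRF1 start (chr19:4909251-4909525, plus strand) are shown because they held matches, which are in capitals. DNMT3L was not matched. A match describes letters only and names no bound factor.
DNMT1: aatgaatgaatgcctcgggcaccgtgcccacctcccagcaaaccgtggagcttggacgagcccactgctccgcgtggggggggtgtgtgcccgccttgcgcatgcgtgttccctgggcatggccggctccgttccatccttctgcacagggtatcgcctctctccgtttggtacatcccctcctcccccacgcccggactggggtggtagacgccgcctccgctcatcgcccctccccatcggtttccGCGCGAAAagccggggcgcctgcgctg
UHRF1: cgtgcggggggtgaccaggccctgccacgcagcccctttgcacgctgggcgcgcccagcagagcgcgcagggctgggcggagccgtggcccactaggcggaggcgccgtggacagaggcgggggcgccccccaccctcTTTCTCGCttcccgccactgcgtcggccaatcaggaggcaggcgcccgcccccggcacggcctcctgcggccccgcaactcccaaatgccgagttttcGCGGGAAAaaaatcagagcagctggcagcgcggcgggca
The DNMT1 match began 2 bases before the start, and the UHRF1 matches began 112 and 14 bases before it. The windows held 26 and 31 CpG sites, so both of these transcript starts lay in CpG-rich DNA.

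The levels across the 9 groups were examined first. DNMT1 (ENSG00000130816, chromosome 19, 10133342 to 10231286, minus strand, GRCh38), the maintenance methyltransferase, was at 80.6 TPM in hPSC, 46.6 TPM in DE, 94.0 TPM in PP2 and 29.1 TPM in SC-β. The ePP-P9 libraries had 68.5 and 67.4 TPM, the ePP-P21 libraries 65.8 and 79.4 TPM and the ePP-β libraries 18.9 and 19.8 TPM. In batch 3 it was at 35.0 and 22.3 TPM with DMSO and at 100.3 and 47.1 TPM with I-BET151. Stem cells, progenitors and ePPs thus had high DNMT1, and both kinds of β-like cells and the DMSO progenitors had low DNMT1. Within the highest 5 groups (PP2, hPSC, ePP-P21, I-BET151 and ePP-P9) neighbours in the order differed by less than 1 pooled replicate SD (0.40 on the log2 scale). That SD came mostly from the spread of the batch 3 libraries. The gene overlaps S1PR2 on the same strand, which had 1.56 to 9.77 TPM.

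UHRF1 (ENSG00000276043, chromosome 19, 4903080 to 4962154, plus strand) was at 129.3 TPM in PP2, where it exceeded DNMT1. It was at 19.9 TPM in hPSC, 16.2 TPM in DE and 12.0 TPM in SC-β. The ePP-P9 libraries had 36.7 and 42.0 TPM, the ePP-P21 libraries 31.7 and 34.4 TPM and the ePP-β libraries 11.2 and 12.3 TPM. PP2 stood apart from the next group, ePP-P9, by 1.69 log2 units against a pooled SD of 0.79, and no other neighbours in the order differed by more than that SD. The libraries of batch 3 spread widely, from 22.3 and 4.92 TPM with DMSO to 31.6 and 10.5 TPM with I-BET151. Most of the pooled SD came from these libraries. It therefore says little about gaps between groups of batches 1 and 2.

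DNMT3B (ENSG00000088305, chromosome 20, 32762385 to 32809359, plus strand), the de novo enzyme of the early embryo, had the widest range of the 9 genes. It was at 568.1 TPM in hPSC, 136.0 TPM in DE, 26.8 TPM in PP2 and 3.34 TPM in SC-β. The ePPs had 6.32 and 5.67 TPM at passage 9 and 5.20 and 5.40 TPM at passage 21, and ePP-β had 1.04 and 1.69 TPM. The steps from hPSC to DE, from DE to PP2 and from PP2 to I-BET151, the next group in the order, were larger than the pooled SD of 0.73 log2 units. From I-BET151 through ePP-P9, ePP-P21 and DMSO to SC-β no neighbours differed beyond that SD, and ePP-β lay below SC-β by 0.89. Most of this SD, too, came from the batch 3 libraries. DNMT3A (ENSG00000119772, chromosome 2, 25227855 to 25342590, minus strand), the de novo enzyme of later development, ranged only from 18.8 to 82.1 TPM. Its 3 highest values were 82.1 TPM in PP2, 66.9 TPM in hPSC and 37.3 TPM in DE among the single libraries, beside 38.2 and 31.3 TPM in ePP-β.

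The balance of the methyltransferases therefore shifted along the path, as the plot of family shares shows. The level of DNMT3B was 8.49 times that of DNMT3A in hPSC and 3.64 times in DE, but 0.326 times in PP2 and 0.119 times in SC-β. It was 0.154 to 0.257 times in the 4 ePP libraries, and 0.0272 and 0.0540 times in ePP-β. DNMT3B made up 79.4% of the summed TPM of the 3 catalytic DNMT genes in hPSC, 13.2% in PP2 and 1.79% and 3.20% in ePP-β. DNMT1 was the largest component in each ePP library (62.8% to 69.0%), and DNMT3A was the largest in both ePP-β libraries (65.6% and 59.3%). SC-β did not share this lead of DNMT3A, with DNMT1 at 48.2%, DNMT3A at 46.3% and DNMT3B at 5.51%. In batch 3 DNMT1 was the largest in each library (51.5% to 69.3%). The sum itself was 715.6 TPM in hPSC, 99.4 to 115.4 TPM in the ePPs, 58.2 and 52.8 TPM in ePP-β and 60.5 TPM in SC-β.

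**Figure D1:**
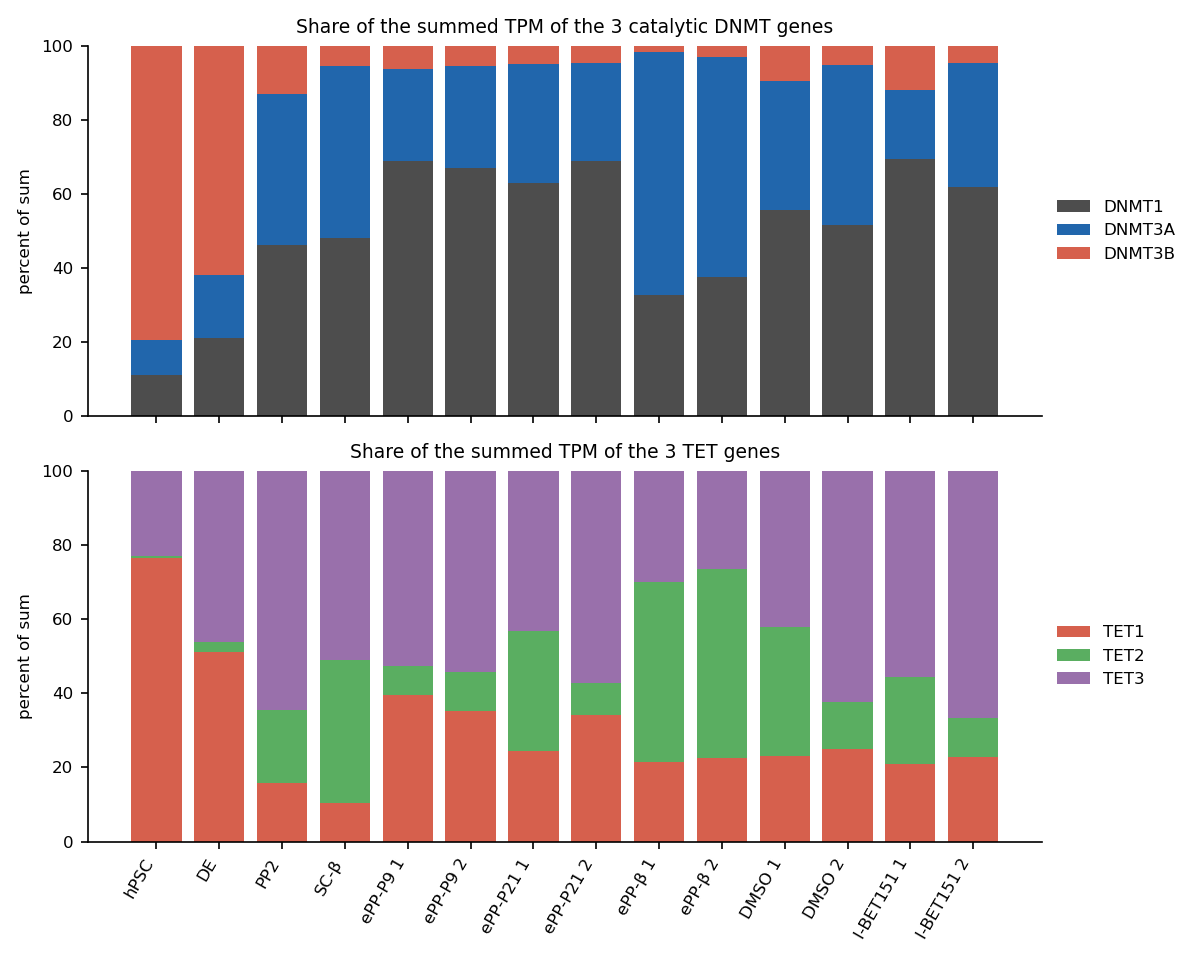
Shares of the summed TPM taken by DNMT1, DNMT3A and DNMT3B (upper panel) and by TET1, TET2 and TET3 (lower panel) in each of the 14 libraries, as stacked bars from 0 to 100 percent. DNMT3B and TET1 make up most of their families in hPSC (79.4% and 76.6%), and DNMT3A and TET2 are the largest components in both ePP-β libraries.

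DNMT3L (ENSG00000142182, chromosome 21, 44246339 to 44262216, minus strand) was nearly silent. It was listed at 0 in 4 libraries (PP2, both ePP-P9 libraries and ePP-P21 replicate 2) and was at 0.387 TPM in hPSC. It reached 1 TPM only in the 2 DMSO libraries, at 3.31 and 1.28 TPM. An exact 0 may be a failed estimate in these files, since all 37 mitochondrial genes were listed at 0 in every library. The antisense gene DNMT3L-AS1 stayed at or below 0.288 TPM.

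Among the erasers, TET1 (ENSG00000138336, chromosome 10, 68560337 to 68694487, plus strand) had its highest level in hPSC, like DNMT3B. It was at 13.4 TPM in hPSC, 6.59 TPM in DE, 3.85 TPM in PP2 and 0.802 TPM in SC-β, and between 1.87 and 3.37 TPM in the 10 libraries of batches 2 and 3. Over the 9 group means the log2 levels of TET1 and DNMT3B had a Pearson r of 0.90, a description of 9 points that share 1 cell line and 3 batches. TET2 (ENSG00000168769, chromosome 4, 105145875 to 105279816, plus strand) had its lowest level there, at 0.083 TPM in hPSC, 0.349 TPM in DE, 4.77 TPM in PP2 and 2.98 TPM in SC-β. Its highest values were 6.14 and 7.63 TPM in ePP-β. As a share of the summed TET transcripts, TET1 was 76.6% in hPSC and 10.4% in SC-β, while TET2 was 0.474% in hPSC, 48.6% and 50.9% in ePP-β and 38.5% in SC-β.

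TET3 (ENSG00000187605, chromosome 2, 73984910 to 74108176, plus strand) peaked in PP2 at 15.6 TPM and lay between 3.45 and 6.92 TPM in the other 13 libraries. A lncRNA on the same strand, ENSG00000235499, overlaps TET3 and had 0.705 to 15.9 TPM, so the division of reads between them is uncertain. TDG (ENSG00000139372, chromosome 12, 103965822 to 103988874, plus strand) was the most abundant eraser. It was at 19.5 TPM in hPSC, 68.1 TPM in DE, 43.6 TPM in PP2 and 23.9 TPM in SC-β. The ePPs had 102.5 and 111.0 TPM at passage 9 and 103.1 and 122.2 TPM at passage 21, and ePP-β had 71.8 and 81.2 TPM. The ePP libraries thus had the highest TDG of all, above DNMT1 in the same libraries, and the 2 passages did not differ beyond the pooled SD of 0.18 log2 units. The pseudogene TDGP1 had 0.733 to 5.66 TPM, and the division of reads between it and TDG is uncertain.

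**Figure D2:**
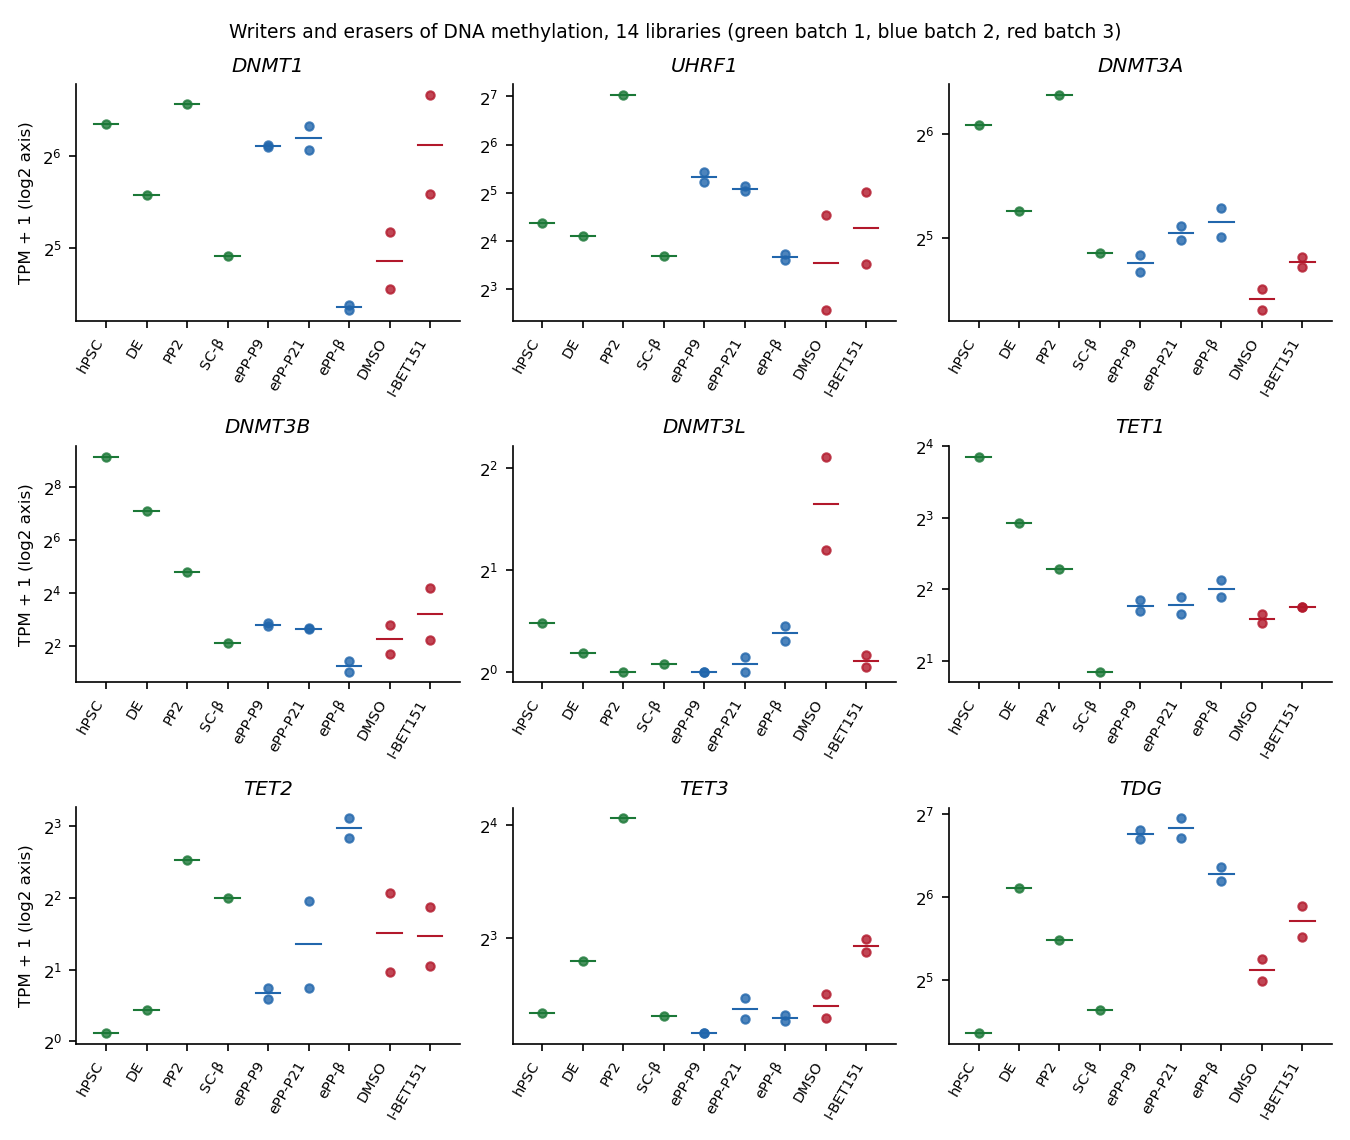
TPM + 1 of each of the 9 genes on a log2 axis, with 1 point per library and a line at the group mean on the log2 scale, for the 9 groups (green batch 1, blue batch 2, red batch 3; the axis range differs between panels). DNMT3B and TET1 are highest in hPSC, UHRF1 and TET3 in PP2, TDG in the ePPs and TET2 in ePP-β.

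The steps between single libraries have no test, and a difference beyond 1 log2 unit is only counted here. From hPSC to DE, 7 members reached 1 TPM in at least 1 of the groups, 1 was higher (TDG, by 1.76 log2 units) and 1 was lower (DNMT3B, −2.05), where 10.8% of all genes were higher and 16.1% lower. From DE to PP2, 4 of 8 were higher (UHRF1 by 2.92, TET3 by 1.26, DNMT3A by 1.12 and TET2, from 0.349 to 4.77 TPM) and 1 was lower (DNMT3B, −2.30), where 27.2% of all genes were higher and 9.83% lower. The median difference over all genes in that step was 0.38, and with quantile normalization 2 members were higher and 3 lower. From PP2 to SC-β, 0 of 8 were higher and 6 were lower, where 12.7% of all genes were higher and 22.1% lower. The 6 were UHRF1 (−3.33), DNMT3B (−2.68), TET3 (−1.75), DNMT1 (−1.66), DNMT3A (−1.52) and TET1 (−1.43), beside a median of −0.37 for all genes. TET2 and TDG, at −0.53 and −0.84, were the exceptions among the genes expressed.

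The ePPs were set beside PP2, the progenitors made without expansion, although batch and culture differ. Of 8 members, 1 was higher and 5 were lower in the ePPs, where 8.44% of all genes were higher and 26.9% lower. TDG was higher by 1.31 log2 units. DNMT3B (−2.07), UHRF1 (−1.82), TET3 (−1.79), TET2 (−1.52) and DNMT3A (−1.47) were lower, and DNMT1 was nearer to PP2, at −0.42. The median of all genes was −0.27. Between the β-like cells of the 2 sources, TDG and TET1 were higher in ePP-β than in SC-β by 1.64 and 1.16 log2 units, and 0 of 8 members were lower, where 19.0% of all genes were higher and 17.9% lower. The differences were −0.02 for UHRF1 and for TET3, 0.29 for DNMT3A and 0.98 for TET2, and DNMT1 (−0.57) and DNMT3B (−0.89) were on the lower side.

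Next, ePP-β were compared with ePPs within batch 2, which asks how the machinery differs once the expandable progenitors have been differentiated. The ePP medium held I-BET151, and the media that the paper lists for differentiation to β-like cells do not. Differentiation and the removal of I-BET151 therefore cannot be told apart in this comparison. DNMT1, UHRF1 and DNMT3B fell and TET2, which entered the test only through its ePP-β levels, rose. Of the 8 tested members 3 were lower, where 9.86% of 18076 tested genes were, and 1 was higher, where 17.9% were (limma, with the adjusted p under 0.05 and the log2 fold change past 1). DNMT1 fell from 70.3 ± 6.21 TPM (SD, n = 4) to 18.9 and 19.8 TPM, with a log2 change of −1.80 (SE 0.10, limma adjusted p = 4.23e-05). UHRF1 fell from 36.2 ± 4.37 TPM (SD, n = 4) to 11.2 and 12.3 TPM, with a log2 change of −1.54 (SE 0.10, limma adjusted p = 8.83e-05). In neither gene did the groups overlap, but the share of all genes without overlap was not counted, here or below.

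The de novo enzymes differed from each other. DNMT3B fell from 5.65 ± 0.488 TPM (SD, n = 4) to 1.04 and 1.69 TPM, with a log2 change of −1.50 (SE 0.18, limma adjusted p = 0.000803). DNMT3A was at 29.1 ± 3.92 TPM (SD, n = 4) in ePPs and at 38.2 and 31.3 TPM in ePP-β, the groups overlapped, and its log2 fold change of 0.25 (SE 0.12, limma adjusted p = 0.116) missed the threshold. DNMT3L was not tested, since no library of the fit reached 1 TPM.

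Among the erasers, TET2 rose to 6.14 and 7.63 TPM from values of 0.513, 0.672, 2.87 and 0.680 TPM in the ePP libraries. The log2 fold change was 1.96 (SE 0.34, limma adjusted p = 0.00394), and the groups did not overlap. The ePP libraries were uneven, since ePP-P21 replicate 1 stood far above the other 3, and the gene reached 1 TPM only in that library and in ePP-β. It therefore passed the filter (1 TPM in 2 or more libraries) only through the ePP-β libraries, so a difference in that direction was built into its being tested. With no filter, over all genes, its adjusted p was 0.0335 (limma). TDG was lower by 0.51 log2 units (SE 0.10, limma adjusted p = 0.00601), which passed on the adjusted p but not on the fold, and by adjusted p alone 28.2% of all tested genes were lower and 29.2% higher. TET1 at 0.23 (limma adjusted p = 0.289) and TET3 at 0.03 (limma adjusted p = 0.893) did not pass, and both turned negative with quantile normalization. When all 10 replicated libraries of batches 2 and 3 entered 1 fit, the calls of UHRF1 (adjusted p = 0.0634) and DNMT3B (0.0567) were lost and those of DNMT1 and TET2 held. Over all tested genes the median was −0.03. The sum of the 3 catalytic DNMT genes was 11.8 to 15.9 times the sum of the TET genes in the ePP libraries and 4.60 and 3.53 times in ePP-β.

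**Figure D3:**
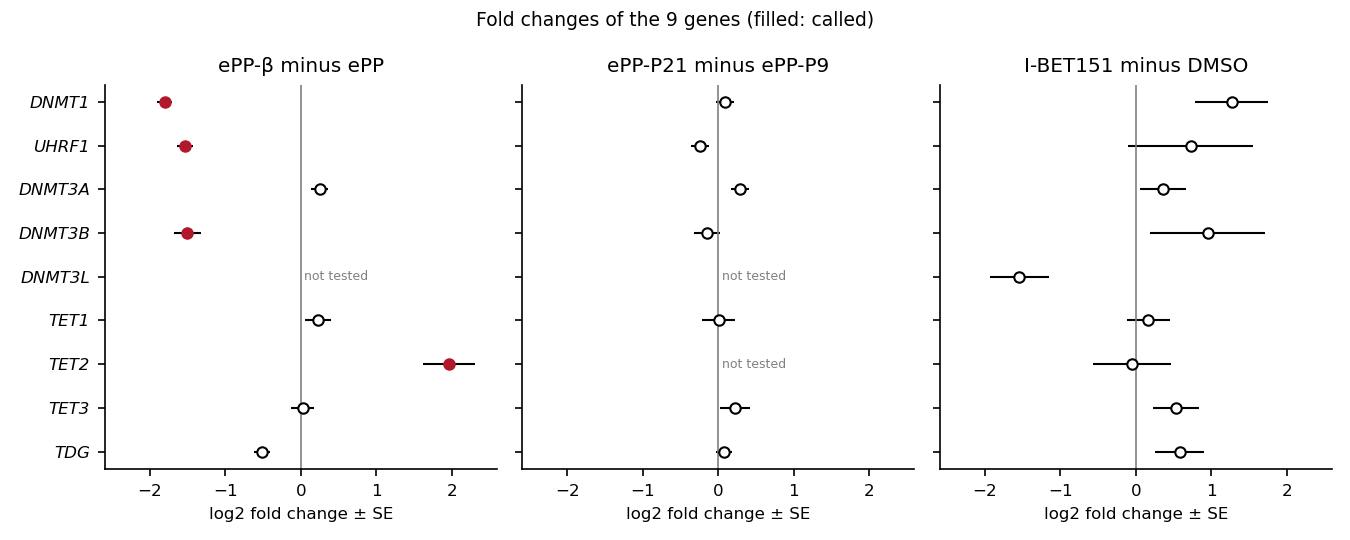
Log2 fold change of each gene on the log2(TPM + 1) scale with its SE, from limma, for ePP-β minus ePP (6 libraries), ePP-P21 minus ePP-P9 (4 libraries) and I-BET151 minus DMSO (4 libraries). Filled points passed both thresholds, which was so for DNMT1, UHRF1, DNMT3B and TET2 in the first comparison and for 0 genes in the other two.

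Proliferation genes moved with this comparison. Of 12 proliferation genes, 11 were lower in ePP-β and 0 higher, with a median log2 fold change of −1.48 beside −0.03 for all genes. PCNA, the sliding clamp of DNA replication that also holds DNMT1 at the fork, had a log2 fold change of −1.50 (SE 0.07, limma adjusted p = 2.81e-05). The log2 level of DNMT1 minus the mean of the list was −0.34 to −0.06 in the ePP libraries and −0.61 and −0.58 in ePP-β, so DNMT1 lay further below the list mean in ePP-β. For UHRF1 it was −1.24 to −1.01 in the ePPs and −1.31 and −1.22 in ePP-β. In SC-β, DNMT1 was 0.61 above the list mean, the highest of the 14 libraries. The part of proliferation in the change of DNMT1 and UHRF1 was not tested.

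**Figure D4:**
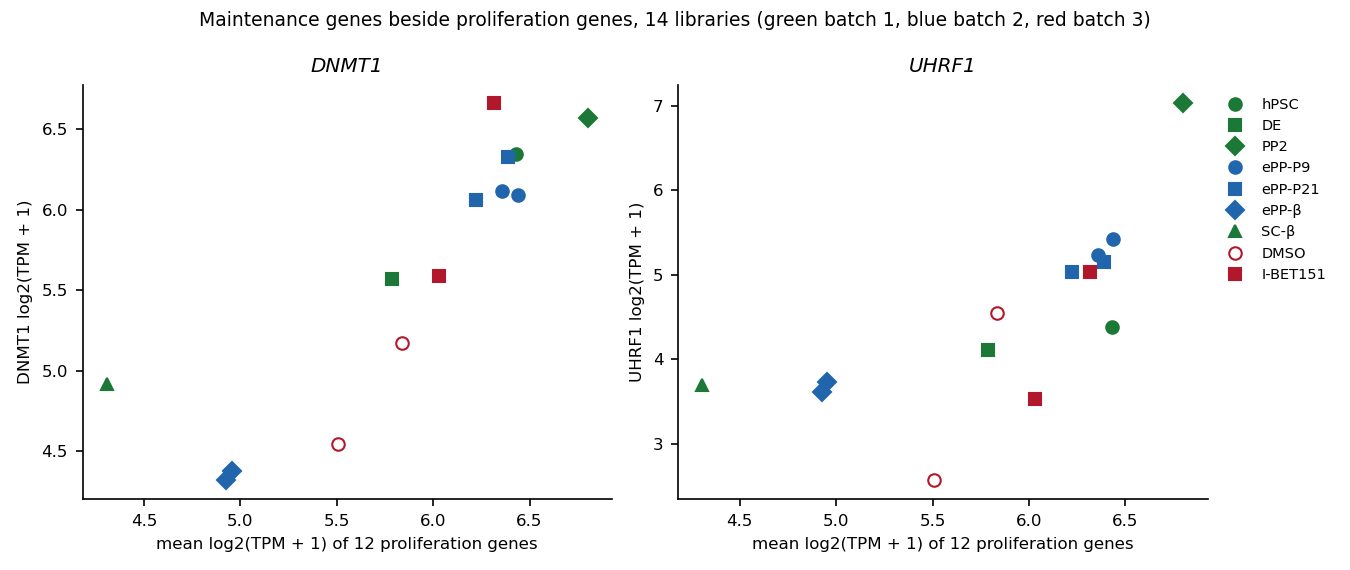
Log2(TPM + 1) of DNMT1 (left) and UHRF1 (right) against the mean log2(TPM + 1) of 12 proliferation genes, 1 point per library, 14 libraries in 9 groups (green batch 1, blue batch 2, red batch 3). The ePP-β and SC-β libraries lie at the low end of the proliferation mean (4.31 to 4.95) and PP2 at the high end (6.80).

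The rest of the pathway was described from lists of related genes, whose counts stand beside 9.86% of all tested genes lower and 17.9% higher. With 6 to 13 tested genes a list, these counts are descriptions and nothing particular to a list is read from them. Of 10 tested partners of the methyltransferases, 2 were lower in ePP-β and 0 higher: CDCA7 (log2 fold change −1.42), which activates the remodeller HELLS, and TRIM28 (−1.41), the corepressor of KRAB zinc finger proteins. The median of that list was −0.06. Among 6 TET partners and enzymes of the 2-oxoglutarate supply, CXXC4, which binds TET2 and lowers its protein, rose by 2.23, and IDH1 (−1.24) and DCAF1 (−1.14) fell. CXXC4 was at 1.86 to 2.95 TPM in the ePPs and at 14.7 and 13.8 TPM in ePP-β, so it was higher in the same libraries as TET2. Bulk RNA does not show whether the same cells held both. The list's median was −0.09.

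In base excision repair, 2 of 13 tested genes were lower and 1 higher, with a median of −0.43. NEIL3 (−2.25) and UNG (−1.25), which remove oxidised bases and uracil, fell. GADD45G, a stress and differentiation gene tied to demethylation, rose by 4.58, from 0.280 to 0.551 TPM in the ePPs to 30.3 and 36.4 TPM in ePP-β, and it passed the filter only through the ePP-β libraries. In the methyl donor cycle, 3 of 10 tested genes were lower and 1 higher, with a median of −0.65. MAT2B (−1.48), SHMT1 (−1.10) and AHCY (−1.05), which clears S-adenosylhomocysteine, fell. MAT1A, the liver form of methionine adenosyltransferase, was listed at 0 in all 4 ePP libraries and was at 3.21 and 2.70 TPM in ePP-β, through which alone it passed the filter. Of 8 methyl-CpG readers 1 was higher (ZBTB38, 1.34) and 0 lower, with a median of −0.12.

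Genes of the germ line that promoter methylation keeps silent stayed at low levels. Of the 8 genes in that list 0 reached the filter in any of the 3 comparisons. Their summed TPM was 3.49 in hPSC, of which DAZL gave 2.98, and 1.39 or less in each of the other 13 libraries. The lower DNMT1, UHRF1 and DNMT3B transcripts of ePP-β were thus seen beside germ line sums of 1.39 and 0.331 TPM, of which STK31 alone gave 1.23 and 0.302 TPM, against 0.0983 to 0.282 TPM in the ePPs.

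Passage was considered next, since long culture could alter the machinery. Between ePP-P21 and ePP-P9, 0 of 7 tested members were higher, where 1.07% of 15822 genes were, and 0 were lower, where 0.0569% were, and 0 members had an unadjusted p under 0.05 (limma). At an unadjusted p under 0.05, 19.1% of all genes were higher and 3.91% lower. The largest differences were 0.29 log2 units for DNMT3A (SE 0.12, limma adjusted p = 0.227) and −0.24 for UHRF1 (SE 0.12, limma adjusted p = 0.286). DNMT1 (0.09), DNMT3B (−0.15), TET1 (0.00), TET3 (0.22) and TDG (0.07) differed by at most 0.22, beside a median of 0.13 for all genes, and DNMT1, TET1, TET3 and TDG changed sign under at least 1 other scaling of the libraries. TET2 and DNMT3L fell under the filter. In each of the other pathway lists and the proliferation list 0 genes were called in either direction. Of the 2 most abundant genes of each list with tested genes, the differences were −0.24 for TRIM28 and 0.08 for CDCA7, 0.05 for AHCY and 0.58 for MAT2A, 0.04 for IDH1 and 0.08 for IDH2, −0.04 for APEX1 and −0.22 for PARP1, −0.28 for MBD3 and 0.66 for MBD1, and 0.02 for PCNA and −0.12 for MCM7.

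Finally, I-BET151 was compared with DMSO in batch 3, which asks whether the BET inhibitor alters these genes in progenitors. DNMT1 was higher in both I-BET151 libraries (100.3 and 47.1 TPM) than in both DMSO libraries (35.0 and 22.3 TPM). Its log2 fold change was 1.27 (SE 0.49), with an unadjusted p of 0.0466 and an adjusted p of 0.318 (limma), so it did not pass over all genes. Of the 9 members 0 were called higher, where 0.00599% of 16687 genes were, and 0 lower, where 0.204% were. At an unadjusted p under 0.05 there were 2 members, DNMT1 above and DNMT3L below, where 6.21% of all genes were higher and 8.98% lower. Without I-BET151 replicate 2, DNMT1 (log2 fold change 1.81, adjusted p = 0.0498) and DNMT3B (1.94, adjusted p = 0.0333) were called higher (limma). In 1 fit of all 10 replicated libraries DNMT1 was called higher (adjusted p = 0.0477) and DNMT3L lower (0.014). With the replicate numbers entered as a block, 1 member was called higher (DNMT1) and 1 lower (DNMT3L). In that fit 828 of all genes were higher and 1466 lower. Whether the replicate numbers pair the libraries could not be settled. The paper, which used DESeq2 on counts, reported many more changed genes than the main fit here.

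UHRF1 overlapped between the groups, with a log2 fold change of 0.72 (SE 0.83, limma adjusted p = 0.737). DNMT3B also overlapped, at 5.97 and 2.24 TPM with DMSO and 17.2 and 3.64 TPM with I-BET151. In both genes the replicate 1 library of each group was well above replicate 2. Ribosomal protein genes took 20.4% and 16.8% of the listed TPM in the replicate 1 libraries and 27.9% and 27.8% in replicate 2. Their part in the spread was not tested.

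DNMT3L, the stimulating subunit, was at 3.31 and 1.28 TPM with DMSO and at 0.119 and 0.033 TPM with I-BET151. The groups did not overlap, and the log2 fold change was −1.54 (SE 0.39, unadjusted p = 0.0107, limma adjusted p = 0.172). The gene passed the filter only through the DMSO libraries, so a difference in that direction was built into its being tested. TDG was at 30.7 and 37.1 TPM with DMSO and at 44.7 and 58.4 TPM with I-BET151, a log2 fold change of 0.58 (SE 0.32, limma adjusted p = 0.465). TET3 was at 0.53 (limma adjusted p = 0.479) and DNMT3A at 0.36 (limma adjusted p = 0.636), with no overlap in either. With 2 libraries in each group, and the share over all genes not counted, nothing is read from a lack of overlap. TET1 (0.17) and TET2 (−0.05, positive with quantile normalization) had small values beside the median of 0.16 for all genes.

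**Figure D5:**
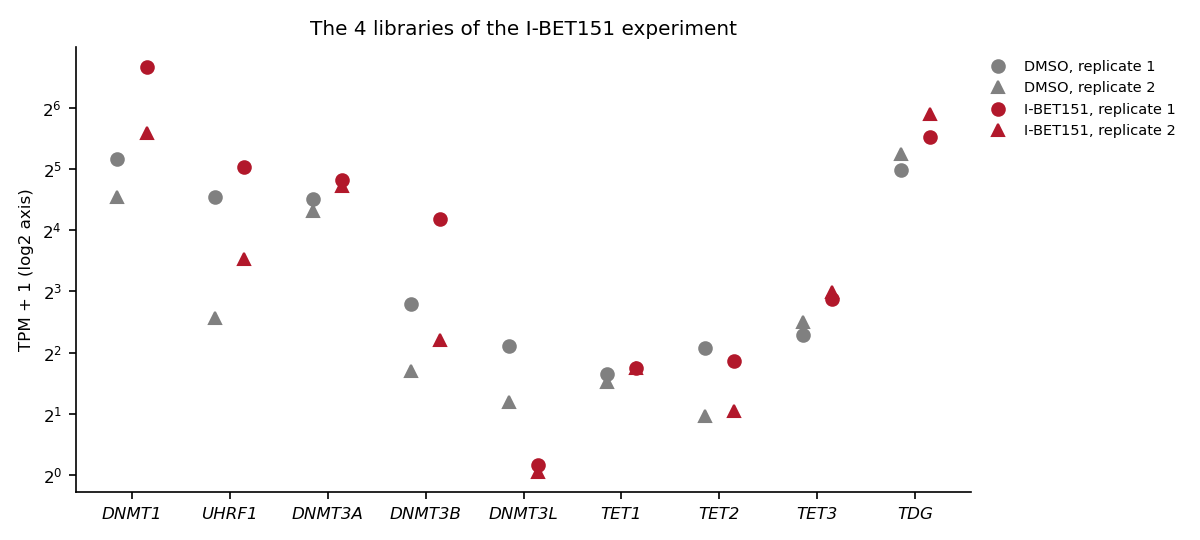
TPM + 1 on a log2 axis of the 9 genes in the 2 DMSO libraries (grey) and the 2 I-BET151 libraries (red), with circles for replicate 1 and triangles for replicate 2. DNMT1, DNMT3A, TET1, TET3 and TDG lie higher and DNMT3L lower in both I-BET151 libraries, while UHRF1, DNMT3B and TET2 overlap between the groups.

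The proliferation list leaned the same way as DNMT1. Of its 12 genes 11 had a positive log2 fold change, with a median of 0.51 beside 0.16 for all genes, but 0 were called and 1 had an unadjusted p under 0.05 (PCNA, 1.28, limma adjusted p = 0.156). PCNA was at 107.7 and 128.2 TPM with DMSO and at 301.2 and 273.2 TPM with I-BET151, and MCM7, of the replicative helicase, had a log2 fold change of 1.03. In each of the other pathway lists 0 genes were called. Partners of the methyltransferases had a median of 0.48 over 10 tested genes, with TRIM28 at 1.04 and CDCA7 at 0.53. Base excision repair had a median of 0.31 over 13, with APEX1 at 0.31 and GADD45A at 0.06, and the methyl donor cycle 0.15 over 9, with AHCY at 0.11 and SHMT2 at −0.11. The medians were −0.07 for the readers, with MBD3 at 1.01 and MBD1 at 0.23, and −0.11 for the TET partners, with IDH1 at −0.64 and IDH2 at −0.10. Of the 5 mesenchymal markers 4 had a negative log2 fold change and 1 a positive one, and 1 was called lower. The called gene, LUM, fell from 16.2 and 14.2 TPM to 0.477 and 0.670 TPM (log2 fold change −3.37, limma adjusted p = 0.048), having passed the filter only through DMSO. PDGFRB went the other way, at 11.6 and 6.10 TPM with DMSO and 14.3 and 6.37 TPM with I-BET151. The summed list was 184.6 and 80.3 TPM with DMSO and 76.3 and 33.7 TPM with I-BET151. The part of mesenchymal RNA in the differences was not tested.

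For each member the genes with the most similar pattern were sought among 11527 protein-coding genes by Pearson correlation of log2 levels over the 9 group means, which share 1 cell line and 3 batches. DNMT1 was most like TCF19, a gene of the G1 to S transition (r = 0.98), followed by WDR5 and SF3A1 (both 0.97). DNMT3B was most like IL17RD (0.98), MICB (0.98) and N4BP3 (0.97). TET1 was most like YWHAH (0.97), JARID2 (0.96), a cofactor of Polycomb complexes in stem cells, and ACOT7 (0.95). TET2 was most like TGFB2 (0.96), ADAMTS9 (0.95) and TMEM65 (0.95). For UHRF1 the names were LTBP1 (0.96), RBSN and CSTF2T (both 0.95), and for DNMT3A they were DUSP22 (0.98), SALL2 (0.97) and ERAL1 (0.96). For TET3 they were UNK (0.98), BMF (0.97) and DNAL4 (0.96), for TDG ERV3-1 (0.97), CUL5 (0.97) and PCYOX1 (0.96), and for DNMT3L FABP6 (0.96), CA9 (0.96) and TRIM15 (0.95). Only 7 of these 27 names stayed among the first 3 when the 14 single libraries were used. Among the members themselves DNMT1 and UHRF1 had an r of 0.76, UHRF1 and TET3 0.71 and DNMT3B and TET2 −0.68.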

How the data were processed

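Total RNA of 14 libraries was sequenced as paired ends. The authors aligned reads to GRCh38 with HISAT2 2.1.0, assembled transcripts with StringTie and deposited TPM per gene identifier, not scaled further. Strand use and annotation release are not given in the sources used here. Of 60624 identifiers, 60370 matched GENCODE release 44, which gave symbols and positions. Listed TPM summed to between 908685 and 985497.

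Genes that reached 1 TPM in 2 or more libraries of a fit were tested on log2(TPM + 1) with limma 3.58.1 (R 4.3.3, lmFit and eBayes with trend), two-sided, with Benjamini-Hochberg adjustment over all tested genes. A call needed an adjusted p under 0.05 and a log2 fold change beyond 1 in size. The authors used these thresholds with DESeq2 on counts, which TPM cannot enter. Fold changes on this scale understate those of low genes. Each fit held the compared groups of 1 batch, as the batch field of the labels names them, and the ePP level was the mean of both passage groups. Steps between single libraries were described with no test. The code was tested on simulated data.

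Members and gene lists were chosen with earlier results of these data known. All 9 members are named. From each other list up to 4 called genes with the largest change are named, or, where none is called, genes with the highest mean TPM, and for each member the 3 most similar genes with at least 10 TPM in a group. Genes singled out beyond this were chosen after their values were seen. These were DAZL, STK31, LUM, PDGFRB, LIN28A, POU5F1, NANOG, SOX2, GCG and INS by level and PCNA for its role. As alternatives, a pseudocount of 0.1 or 0.01 was used, the filter was dropped or set to 5 TPM, and there were fits with median centring, quantile normalization, leaving out ribosomal protein genes, a replicate block, all 10 replicated libraries in 1 fit, no trend, adjusted p alone, and leaving out each library.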

Additional observations from a re-analysis of the deposited data

Results flagged for a closer look

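In the 4 ePP libraries, 2 of the 9 members had a highest value far from the rest by Dixon's gap test, which chance gives in about 1 in 20 groups. For TET2 it was 2.87 TPM in ePP-P21 replicate 1, with a gap of 0.929 of the whole range. For DNMT3L it was 0.108 TPM in the same library, and the other 3 were listed at 0. With those 3 equal, any other value gives a gap of the whole range. The rate above therefore does not apply to DNMT3L, and nothing is read from its flag.

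The step from progenitor to β-like cell had opposite directions for 2 genes by source. TET2 was higher in ePP-β than in the ePPs by 1.96 log2 units and lower in SC-β than in PP2 by −0.53. CXXC4 was higher by 2.23 and lower by −0.95 respectively. From PP2 to SC-β the median of all genes was −0.37. The TET2 step there was smaller than the pooled replicate SD of that gene (0.59 log2 units), so its direction is uncertain. The direct route was measured in single libraries of batch 1, and the difference between the steps was not tested.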

How the results depend on the processing

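The 4 calls in ePP-β against ePP (DNMT1, UHRF1 and DNMT3B lower, TET2 higher) held under the alternatives run, leave-one-out fits included (3 lower and 1 higher in each), except in 1 fit of all 10 replicated libraries, where 1 member was lower (UHRF1 adjusted p = 0.0634, DNMT3B 0.0567).

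The replicate numbers of the titles were also entered as a block. Whether they pair the libraries could not be settled with 2 numbers. Same-numbered differences correlated at r = 0.675 across genes in DMSO and I-BET151 and at −0.0093 to 0.0439 among the batch 2 groups. With the block, 1 member was higher in I-BET151 (DNMT1, adjusted p = 0.0156) and 1 lower (DNMT3L, 0.0291), while 828 of all genes were higher and 1466 lower, against 1 and 34 without it. It changed no call of a member in batch 2. In 1 fit of all 10 replicated libraries 1 member was higher (DNMT1, 0.0477) and 1 lower (DNMT3L, 0.014). Leaving out each library, which assumes that the lone library left varies like the other group, gave 0 to 2 higher and 0 lower, with 2 without I-BET151 replicate 2 (DNMT1 1.81, DNMT3B 1.94). In that comparison leaving out 1 library moved UHRF1 between −0.26 and 1.71 (negative without DMSO replicate 2 and, at −0.0251, without I-BET151 replicate 1), DNMT3B between −0.0357 (without I-BET151 replicate 1) and 1.94, and TET2 between −0.61 and 0.50 (0.35 without I-BET151 replicate 2). Quantile normalization turned TET2 to 0.0319.

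For ePP-P21 against ePP-P9, median centring turned DNMT1 to −0.12, TET1 to −0.20 and TDG to −0.13. Quantile normalization turned DNMT1 to −0.0049, TET1 to −0.26 and TET3 to −0.0357. TET1 was −0.0327 without ribosomal protein genes. Leaving out 1 library moved TET1 between −0.11 and 0.12 (−0.0767 without ePP-P9 replicate 2), DNMT1 between −0.0466 and 0.22, and TDG between −0.0482 and 0.20, all lowest without ePP-P21 replicate 2. For ePP-β against ePP, quantile normalization turned TET1 to −0.22 and TET3 to −0.38, and TET3 was −0.11 with median centring, −0.0607 without ribosomal protein genes and between −0.0212 (without ePP-P21 replicate 1) and 0.074 in leave-one-out fits. None of these turned values was called. Centring moved the median of all genes from 0.13 to −0.07 in the passage comparison and from −0.03 to −0.17 in ePP-β.

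Steps between single libraries moved as follows. With a pseudocount of 0.1, members lower from hPSC to DE became 2, members lower in ePP-β than in SC-β became 1, and the median range over the groups was 3.61 instead of 2.47 log2 units. Quantile normalization gave 2 higher and 3 lower from DE to PP2. The causes of these changes were not tested. Depth is unknown in TPM.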
